A study of Basiliscus vittatus and Chrysopelea ornata and Dasypeltis gansi with 10 samples.

Results

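The comparison set the cerebella of 3 iguanian lizards, Basiliscus vittatus, Pogona vitticeps and Trioceros jacksonii, against those of 2 lizards outside this lineage, the skink Lepidothyris fernandi and the anguid Pseudopus apodus. These 5 are all the lizards among the 10 squamates of the study, the other 5 being snakes, and they were divided by lineage, a rule that uses no expression value. All animals were adult and wild-type, and the tissue was freshly dissected cerebellum, from which total RNA was depleted of ribosomal RNA and sequenced. B. vittatus is a basilisk that can run on its hind limbs, P. vitticeps is a ground-living agamid, T. jacksonii is an arboreal chameleon, L. fernandi (recorded as Mochlus fernandi in the sample records) is a ground-living skink with limbs and P. apodus is a limbless lizard. The measure was FPKM, fragments normalized to transcript length and to mapped fragments, for 630 one-to-one orthologs named by their protein, with 1 value per gene and species.

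Iguania gathers the agamids, chameleons and the basilisks with their relatives, lizards that largely hunt by sight and in part seize prey with the tongue. The 2 other lizards are not a lineage of their own, since anguids stand nearer to iguanians and snakes than skinks do. The squamate cerebellum, like that of other vertebrates, is built around Purkinje cells, which receive the input of very numerous granule cells and send the only output of its cortex, and it serves the timing and adjustment of movement. Because P. apodus alone lacks limbs, limblessness and membership of the group of other lizards cannot be told apart in that species. The spread within a species is unknown, as the study sequenced duplicates and the sources used here do not say how these became 1 value. Every p-value below therefore measures the spread between species, which holds ancestry, individual and technical differences together.

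Levels differed as a whole between the groups. The median FPKM of the 630 genes was 10.6 in B. vittatus, 11.8 in P. vitticeps and 15.5 in T. jacksonii, against 5.24 in L. fernandi and 7.26 in P. apodus, so that the 3 iguanians lay above both others. The summed FPKM ranged from 10995 to 13383 in iguanians and was 6289 and 8328 in the others. In the 5 snakes the medians ran from 10.1 to 19.8 FPKM, so L. fernandi and P. apodus had the lowest medians of the 10 species. Fragment counts cannot be read from FPKM, and the depth of each value is unknown. No value stood at 0, but 21 lizard values stood at exactly 0.5 FPKM and 1 at 0.2 FPKM, and folds involving these are uncertain.

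**Figure D1:**
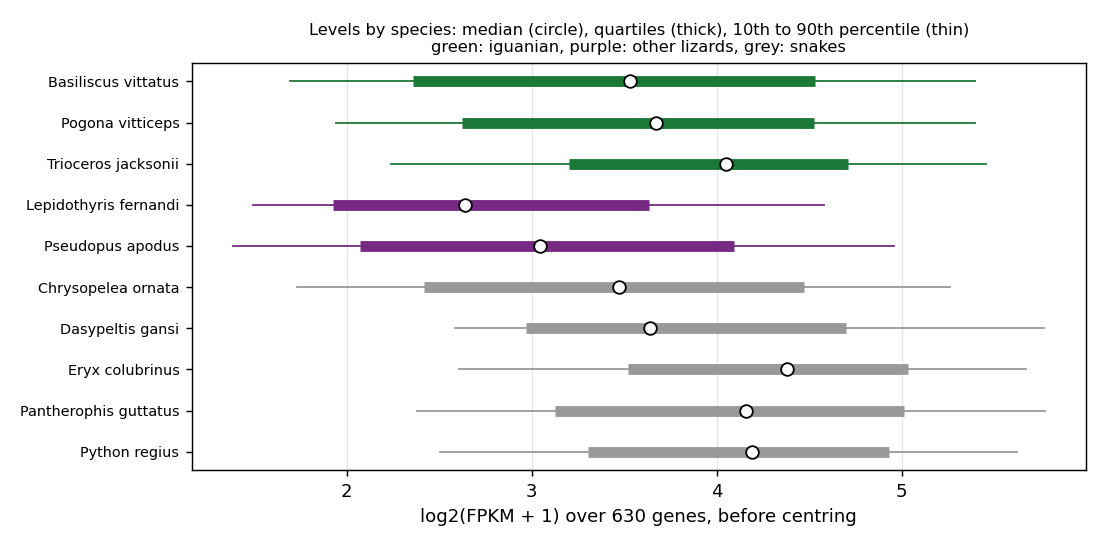
Level of the 630 genes in each species on the log2(FPKM + 1) scale before centring (x axis), with species as rows, circles for medians, thick bars for quartiles and thin bars for the 10th to the 90th percentile. The medians of the 3 iguanians (10.6 to 15.5 FPKM) lie above those of L. fernandi (5.24 FPKM) and P. apodus (7.26 FPKM).

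To compare genes beyond this common shift, log2(FPKM + 1) was centred to the same median in each species, which lowered B. vittatus (-0.14), P. vitticeps (-0.28) and T. jacksonii (-0.66) and raised L. fernandi (0.75) and P. apodus (0.34). Differences below are means of these centred levels, iguanian minus other lizards, in log2 units with their standard error (SE), and FPKM are given as deposited. Because 1 is added to each value, a difference understates the fold of low genes. In bulk tissue, fewer cells of a type and less RNA per cell cannot be told apart.

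No gene passed limma's test at an adjusted p of 0.05 (0 of 630, or 0%, smallest adjusted p = 0.175). At an unadjusted p under 0.05 there were 17 genes of higher level in iguanians (2.7%) and 20 of lower level (3.17%). The exact permutation test has only 10 ways to choose 2 of 5 species, and its smallest two-sided p is 0.2. Any gene whose centred levels do not overlap between the groups reaches this p. Ankyrin-2, huntingtin, rootletin and endoribonuclease Dicer did so, and the test cannot set them apart from the other genes without overlap. In simulated data of the same size, 200 of 630 genes were shifted. There limma found on average 0.1% of genes shifted by 1 log2 unit, 25.5% of those shifted by 2 and 76.6% of those shifted by 3. Recovery with fewer genes shifted was not tested. The median SE of the real genes was 0.69. The differences that follow are thus values with their errors, and none is a call.

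As a description, a gene was called separated if all 3 centred iguanian levels lay on one side of both others. This held in 40 genes with iguanians above (6.35%) and in 106 with iguanians below (16.8%). With 10 ways to choose 2 of 5 species, species ranked at random would separate 1 in 10 genes in each direction. Separation alone is thus not evidence of a difference between the groups. The difference was at least 1 log2 unit in 58 genes of higher and 105 of lower level, and at least 2 in 7 and 9. The median difference over all genes was -0.23, with 249 genes (39.5%) of higher level in iguanians. These splits depended on the scale. Without centring the median was 0.68, 80.2% of genes had the higher mean in iguanians, 201 genes had all iguanians above and 7 all below, and the unadjusted counts were 76 and 1. After quantile normalization the median was -0.03 and 48.1% had the higher mean. All 40 genes separated upwards were also separated in FPKM, whereas of the 106 separated downwards 7 were.

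**Figure D2:**
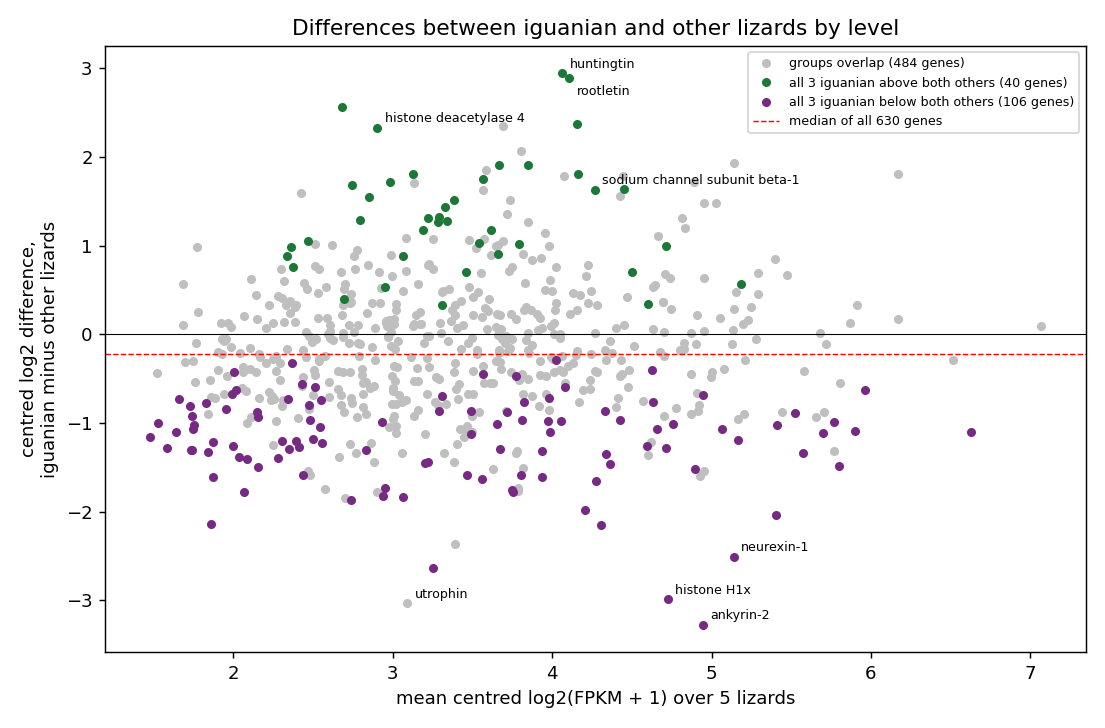
Centred log2 difference, iguanian minus other lizards (y axis), against the mean centred log2(FPKM + 1) over the 5 lizards (x axis), 1 point per gene. Green points are the 40 genes with all iguanians above both others, purple points the 106 with all iguanians below, and the dashed line is the median of the 630 genes (-0.23).

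The downward separations were unevenly spread over expression levels. Among the 158 genes of lowest mean FPKM in lizards (1.88 to 6.43 FPKM) 44 were separated downwards (27.8%), against 13 of 157, 19 of 157 and 30 of 158 in the following groups of rising level. The median difference was -0.43 in the lowest group and -0.16, -0.05 and -0.12 in the others. Without centring the medians were 0.48, 0.75, 0.86 and 0.79.

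The 7 genes below on both scales, a set drawn up after their values were seen, were ankyrin-2, neurexin-1, protocadherin gamma-B5-like, transcription factor E4F1, prefoldin subunit 5, pleckstrin homology domain-containing family M member 3 and YY1-associated factor 2. All 7 were also separated after quantile normalization, as were 38 of the 40 genes above. In prefoldin subunit 5, part of a chaperone that hands actin and tubulin to the folding machinery, levels were 30.95, 15.24 and 29.71 FPKM in B. vittatus, P. vitticeps and T. jacksonii and 33.59 and 41.82 FPKM in L. fernandi and P. apodus. The 5 values of a gene are given in this order throughout. On centred levels, the nearest species of each group were at least 1 log2 unit apart in disks large homolog 5, huntingtin and sodium channel subunit beta-1 (iguanians above). With iguanians below, the same held for ankyrin-2, neurexin-1, protocadherin gamma-B5-like and E4F1. The distance reached 2 units in huntingtin and ankyrin-2 only. In FPKM, T. jacksonii stood close to the nearest other lizard in neurexin-1 (57.05 against 58.06 FPKM in P. apodus). It also did against L. fernandi in protocadherin gamma-B5-like (22.71 and 26.45 FPKM) and E4F1 (2.83 and 3.07 FPKM).

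Ankyrin-2, the adaptor that ties channels and adhesion molecules to the spectrin skeleton of the axon, had 13.1, 14.56 and 17.57 FPKM in the iguanians and 72.49 and 91.52 FPKM in the others. The iguanian values lay within a narrow band and far below the pair. The means were 15.1 ± 2.28 FPKM (SD, n = 3) and 82.0 ± 13.5 FPKM (SD, n = 2). The centred difference of -3.28 (SE 0.56, adjusted p = 0.175 from limma) equals a 9.68-fold higher centred level in the others, which is not the ratio of the FPKM means. The difference was -2.37 without centring and stayed between -3.31 and -3.24 when any 1 species was left out.

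Huntingtin, a large scaffold of vesicle transport and endosome movement, showed the opposite order, with 41.41, 59.38 and 43.88 FPKM in the iguanians and 2.39 and 2.35 FPKM in L. fernandi and P. apodus. The 2 others were nearly equal, and the lowest iguanian stood far above them. The means were 48.2 ± 9.74 FPKM (SD, n = 3) and 2.37 ± 0.0283 FPKM (SD, n = 2). The centred difference was 2.94 (SE 0.59, adjusted p = 0.271 from limma), a 7.69-fold higher centred level in iguanians. This fold is not the ratio of the FPKM means. The difference was 3.85 without centring, and leaving out 1 species gave 2.73 to 3.16.

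Rootletin, the filament protein of the ciliary rootlet, followed with 17.46, 58.14 and 109.4 FPKM against 4.23 and 1.42 FPKM. The groups did not overlap, but the iguanians themselves spread widely, and the difference of 2.89 (SE 0.80, adjusted p = 0.665 from limma) ran from 2.13 without P. apodus to 3.65 without L. fernandi. All remaining genes shared the adjusted p of 0.665 or had a higher one.

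**Figure D3:**
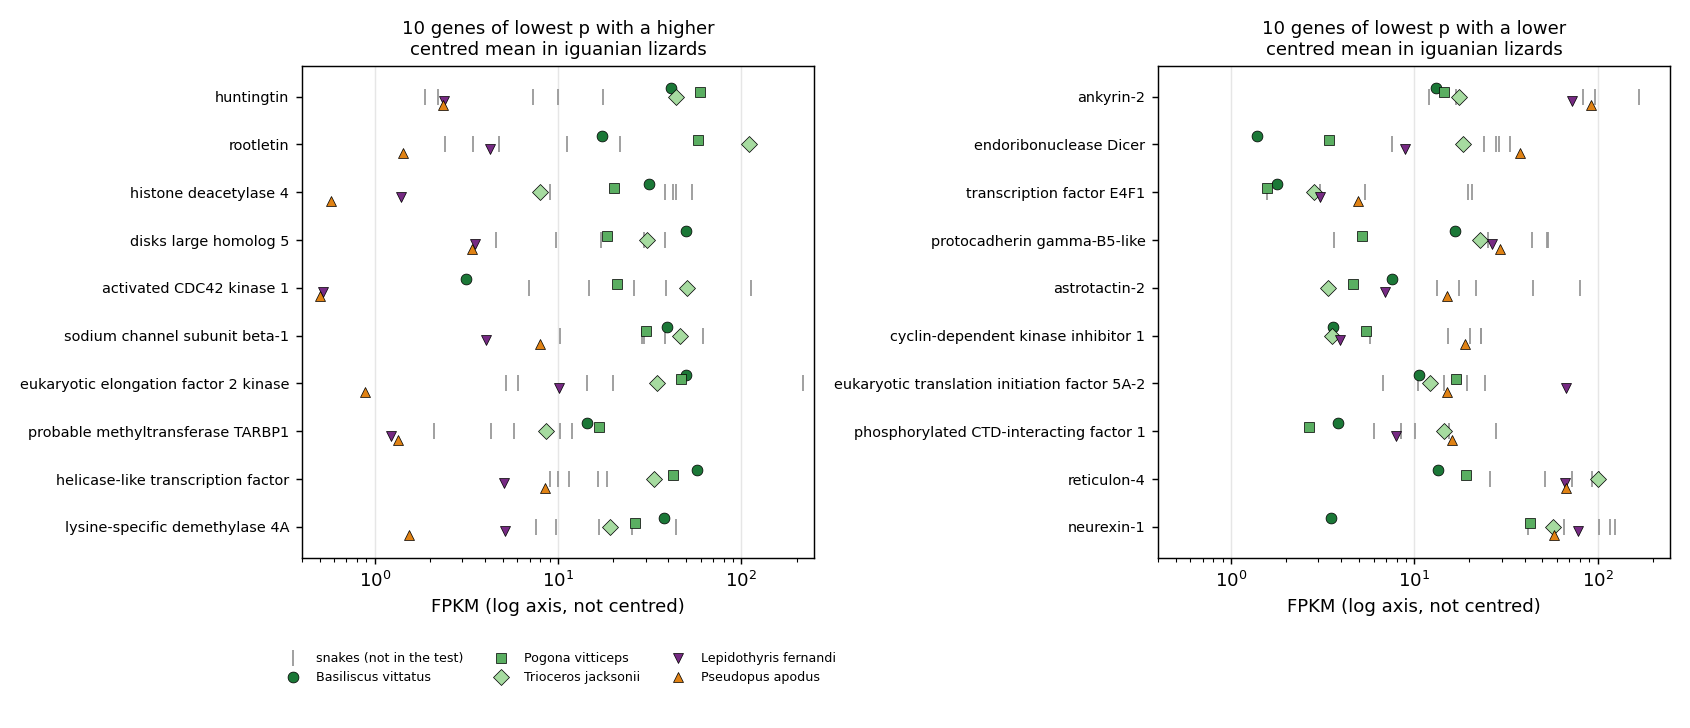
FPKM (log axis, not centred) in each lizard of the 10 genes of lowest p with a higher (left) and a lower (right) centred mean in iguanians, with green symbols for iguanians, a purple triangle for L. fernandi, an orange triangle for P. apodus and grey ticks for the 5 snakes. Huntingtin (iguanians 41.41 to 59.38 FPKM) and ankyrin-2 (13.1 to 17.57 FPKM) have the clearest separation, whereas for genes such as Dicer the uncentred values overlap.

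Of the other genes leading in the higher direction, disks large homolog 5, a scaffold of cell polarity, had 49.78, 18.54 and 30.59 FPKM against 3.52 and 3.41 FPKM (difference 1.91, SE 0.67). Sodium channel subunit beta-1, the accessory subunit that tunes gating and surface level of the neuronal sodium channel, had 39.1, 30.16 and 46.21 FPKM against 4.03 and 7.94 FPKM (1.63, SE 0.58). In both genes every iguanian was above both others by a clear margin. Histone deacetylase 4, a signal-dependent repressor abundant in neurons, had 31.37, 20.28 and 8.0 FPKM against 1.39 and 0.58 FPKM (2.33, SE 0.80), with the chameleon nearest to the others. Lysine-specific demethylase 4A, which removes methyl marks from histone H3, had 38.02, 26.2 and 19.08 FPKM against 5.13 and 1.54 FPKM (1.91, SE 0.74). Here too the chameleon was lowest of the iguanians and P. apodus lowest of all. Activated CDC42 kinase 1, an endocytic kinase, had 3.14, 21.01 and 50.69 FPKM against 0.52 and 0.5 FPKM (2.57, SE 0.91), values at which folds are uncertain. Eukaryotic elongation factor 2 kinase, which slows translation elongation, had 50, 46.95 and 34.6 FPKM against 10.08 and 0.88 FPKM (2.37, SE 0.89). Helicase-like transcription factor, a DNA repair helicase, and the probable methyltransferase TARBP1 differed by 1.64 (SE 0.63) and 1.69 (SE 0.64), each with the lowest iguanian above the highest other lizard.

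In the lower direction, separation often rested on centring. Endoribonuclease Dicer, which cuts microRNA precursors, had 1.38, 3.43 and 18.53 FPKM in the iguanians and 8.91 and 37.72 FPKM in the others (difference -2.64, SE 0.87). The FPKM of T. jacksonii exceeded that of L. fernandi, and only the centred levels were separated. The same held for reticulon-4, the myelin and endoplasmic reticulum protein that limits axon growth, with 13.47, 19.21 and 101.17 FPKM against 66.82 and 66.94 FPKM (-2.04, SE 0.78). E4F1, a ubiquitin ligase and transcription factor, was low throughout, with 1.78, 1.57 and 2.83 FPKM against 3.07 and 4.9 FPKM (-1.61, SE 0.56), yet did not overlap. In cyclin-dependent kinase inhibitor 1, P. apodus stood apart at 19.01 FPKM, while L. fernandi at 3.95 FPKM lay among the iguanians at 3.54 to 5.44 FPKM. In eukaryotic translation initiation factor 5A-2 it was L. fernandi that stood apart, at 66.95 FPKM against 15.07 FPKM in P. apodus and 10.63 to 16.95 FPKM in iguanians, and its difference of -2.15 was -0.90 without L. fernandi and -3.39 without P. apodus. Phosphorylated CTD-interacting factor 1, a cap methyltransferase, completed these genes (-1.83, SE 0.69).

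Ion channels and calcium stores were of mixed direction. Of 10 potassium, sodium, TRPM and volume-regulated anion channels, 3 had the higher centred mean in iguanians and the median was -0.81 (7 of 10 higher without centring). In each direction 1 of 10 was separated, beside 6.35% of all genes upwards and 16.8% downwards. Of 11 genes of calcium entry, stores and pumps, 4 were higher and the median was -0.42 (10 of 11 higher without centring). Ryanodine receptor 2, a calcium release channel, had 23.96, 46.58 and 73.42 FPKM against 8.24 and 14.23 FPKM (1.00, SE 0.61) and did not overlap, while ryanodine receptor 1, the release channel typical of Purkinje cells, differed by -0.73 (SE 0.59). Inositol 1,4,5-trisphosphate receptor type 1, the main calcium release channel of Purkinje cells, had 35.0, 70.59 and 88.85 FPKM against 40.67 FPKM in L. fernandi and 1.38 FPKM in P. apodus. Its difference of 1.72 (SE 1.16) turned to -0.55 without P. apodus.

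Among receptors and scaffolds of glutamate and GABA synapses, 7 of 15 had the higher centred mean in iguanians and the median was -0.00 (13 of 15 higher without centring). Glutamate receptor 1, an AMPA receptor subunit, had 6.92, 7.42 and 10.47 FPKM against 25.01 and 7.27 FPKM (-1.59, SE 0.72), with L. fernandi apart from the other 4 lizards. Gamma-aminobutyric acid type B receptor subunit 1 had 69.57, 42.15 and 9.58 FPKM against 9.9 and 0.5 FPKM (2.07, SE 1.17), so that T. jacksonii stood at the level of L. fernandi. The value of P. apodus at 0.5 FPKM is uncertain, and the difference was 0.44 without P. apodus and 3.70 without L. fernandi. On the presynaptic side, 9 of 15 vesicle cycle genes were higher (median 0.27, 14 of 15 higher without centring). Liprin-alpha-2, an organizer of the active zone, had 43.33, 27.82 and 42.14 FPKM against 1.38 and 13.02 FPKM, and intersectin-2, an endocytic scaffold, had 30.43, 15.13 and 11.58 FPKM against 2.99 and 0.98 FPKM. Both differed by 1.81 without overlap (SE 0.75 and 0.76). Synaptojanin-1, the lipid phosphatase that uncoats vesicles, was the gene of this list with all iguanians below (-1.07, SE 0.57).

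Synaptic adhesion molecules had a median of -0.22, close to the -0.23 of all genes, with 3 of 9 higher (6 of 9 without centring) and 3 of 9 separated downwards, beside 16.8% of all genes. Neurexin-1, the presynaptic partner of neuroligins, had 3.51, 42.95 and 57.05 FPKM in the iguanians and 78.61 and 58.06 FPKM in the others (-2.51, SE 0.99). B. vittatus lay far below the other iguanians, and the difference was -1.46 without it and -3.04 without T. jacksonii. Neurexin 3 had 5.4, 3.54 and 16.03 FPKM against 10.94 and 10.22 FPKM (-1.46, SE 0.66) and was separated only after centring.

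Cadherins and protocadherins, adhesion molecules that sort neurites and cell layers, had 5 of 19 members higher and a median of -0.42 (12 of 19 higher without centring). Of the 19, 1 was separated upwards and 3 downwards, near the 6.35% and 16.8% of all genes. Clustered protocadherins of the gamma group, which give neurons distinct surface identities, diverged among themselves. Protocadherin gamma-B5-like had 16.63, 5.17 and 22.71 FPKM against 26.45 and 29.39 FPKM (-1.98, SE 0.69), whereas protocadherin gamma-A6-like had 30.25, 13.93 and 9.99 FPKM against 1.72 and 4.05 FPKM (1.31, SE 0.72). Neither overlapped between groups. Members of this cluster are close in sequence, and the assignment of fragments among them by the authors is uncertain. Protocadherin-1 stood at 1.34 to 1.79 FPKM in iguanians, 1.63 FPKM in P. apodus and 12.87 FPKM in L. fernandi, and its difference of -2.14 (SE 0.85) was -0.73 without that species.

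Of 8 contactins and L1 and NCAM family members, 3 were higher (median -0.48, 5 of 8 higher without centring). Neural cell adhesion molecule 2 had 33.13, 168.59 and 79.32 FPKM against 19.97 and 4.57 FPKM (1.93, SE 0.90) and neural cell adhesion molecule L1, which carries axon bundling, had 25.74, 73.05 and 37.28 FPKM against 43.23 and 72.55 FPKM (-1.34, SE 0.66). The 2 molecules thus had opposite differences, neither of them separated in both scales. Of 14 axon guidance genes, 5 were higher (median -0.36, 11 of 14 without centring). Plexin-A2, a semaphorin receptor, had 50.44, 54.01 and 10.46 FPKM against 3.56 and 1.45 FPKM (2.35, SE 0.92), with the chameleon near the others. Spondin-1, a secreted guidance protein, was almost constant at 2.55 to 2.86 FPKM in iguanians and 2.3 FPKM in L. fernandi and reached 7.24 FPKM in P. apodus (-1.40, SE 0.61).

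Genes of neuronal migration and trophic signals had 6 of 7 members higher (median 0.23, also 6 of 7 without centring). However, 1 of 7 was separated in each direction, beside 6.35% of all genes upwards and 16.8% downwards. Of the higher members, pituitary adenylate cyclase-activating polypeptide (0.08), reelin (0.18) and NT-3 growth factor receptor (0.23) differed little. Pleiotrophin had the largest difference (1.81), with overlapping centred levels. Agrin, the proteoglycan that clusters receptors at synapses and lines basement membranes, had 11.19, 18.29 and 24.62 FPKM against 3.38 and 2.42 FPKM (1.33, SE 0.60). The exception was astrotactin-2, which controls the surface level of the migration receptor astrotactin-1, with 7.52, 4.64 and 3.39 FPKM against 6.88 and 15.05 FPKM (-1.82, SE 0.66). Astrotactin-1 itself had 23.34, 39.36 and 21.08 FPKM against 7.54 and 12.04 FPKM, a centred difference of 0.49 (SE 0.62) with the FPKM separated but the centred levels overlapping.

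Transporters of chloride, bicarbonate, amino acids and metals had the highest share of downward separations among 27 lists, 7 of 13 against 16.8% of all genes, with 2 of 13 higher and a median of -0.68. The count of higher members was 4 without L. fernandi, 1 without P. apodus and 7 without centring, and in FPKM none of the 7 was separated. Sodium-dependent neutral amino acid transporter SLC6A17, a neuronal carrier of neutral amino acids into synaptic vesicles, had 9.46, 6.25 and 25.27 FPKM against 10.94 and 34.02 FPKM (-1.61, SE 0.69). Solute carrier family 12 member 2, which loads cells with chloride, had 21.32, 11.41 and 19.54 FPKM against 16.88 and 32.08 FPKM (-1.35, SE 0.61). Its counterpart solute carrier family 12 member 5, which extrudes chloride from neurons, differed by -0.68 (SE 0.62) with overlap. The electrogenic sodium bicarbonate cotransporter 1, a glial gene, was of higher centred mean in iguanians, with 97.74, 52.36 and 60.36 FPKM against 31.94 and 11.51 FPKM (0.85, SE 0.74).

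Giant linkers of the cytoskeleton, to which ankyrin-2 belongs, had 4 of 14 members higher and the lowest list median (-0.85, 9 of 14 higher without centring). However, 1 of 14 was separated upwards and 2 downwards, beside 6.35% and 16.8% of all genes. Utrophin, the autosomal relative of dystrophin, had 7.88, 3.74 and 1.5 FPKM in iguanians, 2.86 FPKM in L. fernandi and 109.33 FPKM in P. apodus. Its difference of -3.04 (SE 1.23) was -0.82 without P. apodus and -5.25 without L. fernandi. Cytospin-B had 5.27, 15.13 and 42.08 FPKM against 1.72 and 1.58 FPKM (1.72, SE 0.75). Among 24 myosins and other actin genes, 6 were higher (median -0.28, 20 of 24 higher without centring). Filamin-A, an actin crosslinker, had 18.29, 17.4 and 19.08 FPKM against 3.06 and 2.51 FPKM (1.44, SE 0.58) without overlap. Supervillin, which links actin and myosin to membranes, differed by -1.58 (SE 0.64). Microtubule, motor and centrosome genes had 9 of 19 higher (median -0.08, 17 of 19 without centring), led by rootletin and by tubulin polyglutamylase TTLL5 with 28.17, 16.18 and 15.98 FPKM against 3.38 and 2.31 FPKM (1.52, SE 0.65).

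Phospholipase C, diacylglycerol and phosphoinositide genes were balanced, with 10 of 19 higher (median 0.02, 17 of 19 without centring). Phospholipase D1 differed by -1.44 (SE 0.72) and phosphatidylinositol 4-kinase alpha by 1.02 (SE 0.58).

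**Figure D4:**
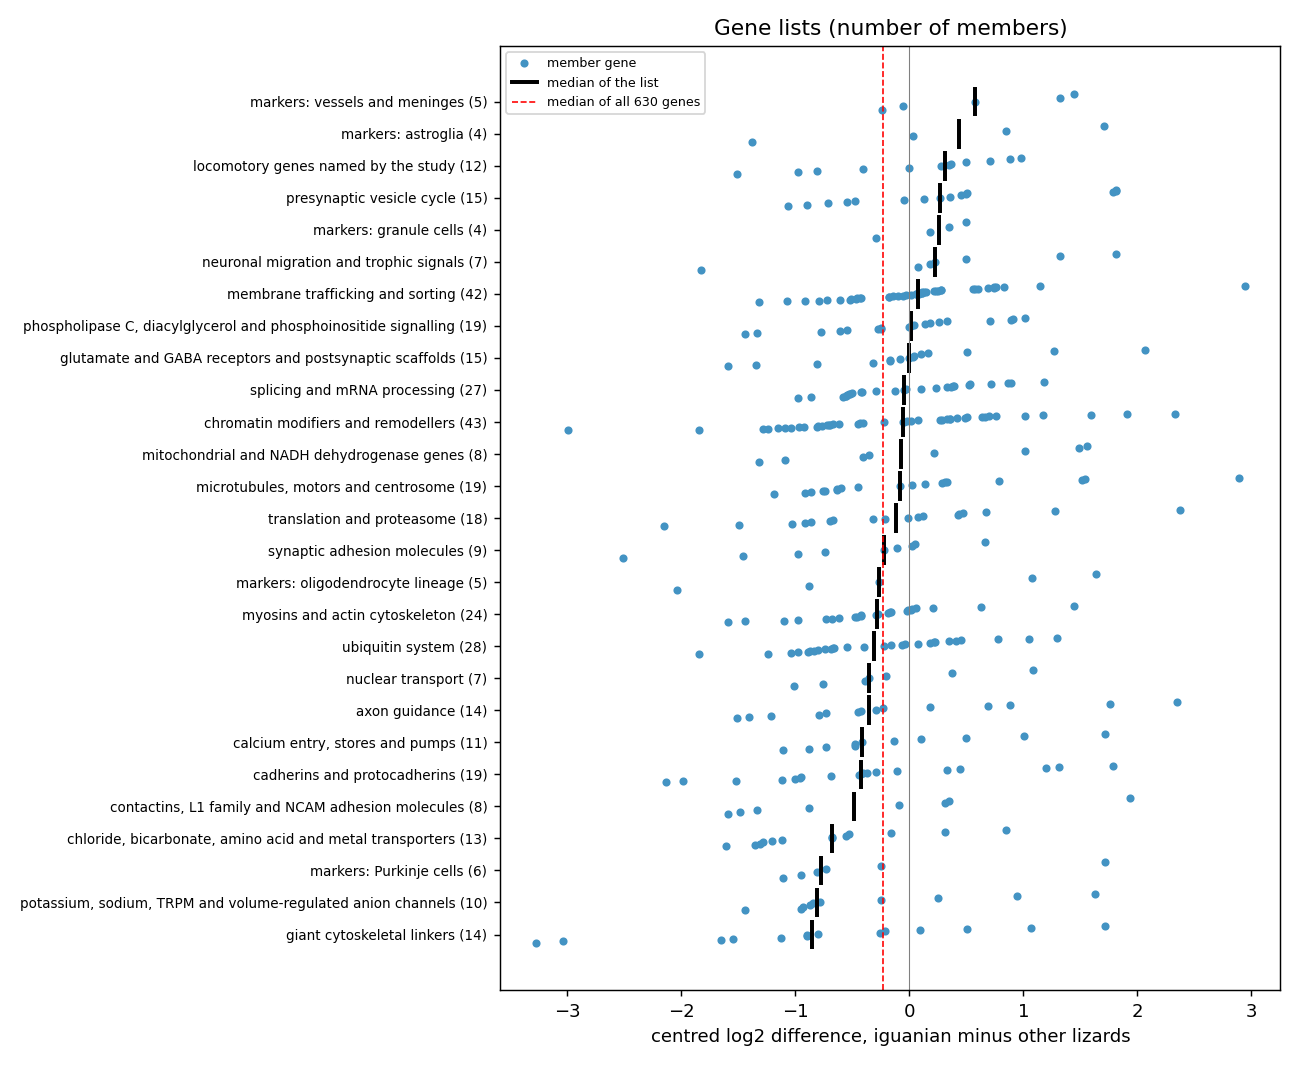
Centred log2 difference, iguanian minus other lizards (x axis), of each member (blue point) of 27 gene lists (rows, number of members in brackets), with the median of each list as a black bar and the median of all 630 genes (-0.23) as a dashed line. Medians run from -0.85 for giant cytoskeletal linkers to 0.58 for markers of vessels and meninges, and every list has members on both sides of 0.

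The larger lists are set beside the 39.5% of all genes that were higher and their median of -0.23. Membrane trafficking and sorting had 24 of 42 higher (median 0.08), splicing and mRNA processing 12 of 27 (-0.05), chromatin modifiers 19 of 43 (-0.05), translation and proteasome 8 of 18 (-0.11), the ubiquitin system 10 of 28 (-0.31), mitochondrial genes 4 of 8 and nuclear transport 2 of 7. Without centring most members of the larger lists were of higher mean in iguanians, namely 39 of 42, 26 of 27, 34 of 43, 14 of 18 and 24 of 28 in the first 5. Of all genes, 6.35% were separated upwards and 16.8% downwards. Genes of splicing and mRNA processing were separated upwards in 4 of 27 cases and downwards in none. Their largest difference was 1.18 (SE 0.58) in CCR4-NOT transcription complex subunit 10, a part of the mRNA deadenylase. Its levels were 15.51, 23.33 and 25.18 FPKM against 4.55 and 3.78 FPKM. At about the shares of all genes, chromatin genes were separated upwards in 4 of 43 cases and downwards in 8. Among them histone H1x, a linker histone, had 0.5, 67.56 and 30.78 FPKM against 78.64 and 48.62 FPKM (-2.99, SE 1.36), where the value of B. vittatus at 0.5 FPKM is uncertain. In the ubiquitin system, ubiquitin conjugation factor E4 B had 5.56, 16.07 and 17.69 FPKM against 1.67 and 1.89 FPKM (1.30, SE 0.63), and histone H2A deubiquitinase MYSM1 had 1.63, 2.38 and 13.22 FPKM against 1.89 and 30.93 FPKM (-1.84, SE 0.99). The former was separated and the latter overlapped. No list held a gene that passed the test in either direction.

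The study named 12 genes as examples of a larger locomotory behaviour category that it drew from these same samples, so their values are not independent evidence, and the rest of the category was not analysed here. Of the 12, 7 had the higher centred mean in iguanians and the median was 0.31 (10 of 12 higher without centring). Upwards 4 were separated (6.35% of all genes) and downwards 1 (16.8% of all genes). Alsin, an endosomal exchange factor for small GTPases, had 8.74, 12.18 and 19.05 FPKM against 2.02 and 4.21 FPKM (0.88, SE 0.58). Hamartin, an inhibitor of mTOR signalling, had 3.35, 8.7 and 14.42 FPKM against 0.97 and 1.78 FPKM (0.98, SE 0.63), pumilio homolog 1, a translational repressor, 34.04, 43.95 and 27.32 FPKM against 9.06 and 12.36 FPKM (0.71, SE 0.61), and contactin-2, an axonal adhesion molecule, 28.28, 29.73 and 43.75 FPKM against 11.66 and 15.37 FPKM (0.34, SE 0.56). In these 4 genes no iguanian overlapped with the others on either scale. Unconventional myosin-Va, an organelle motor of neurons, was the downward one, with 19.23, 9.31 and 19.97 FPKM against 11.21 and 22.97 FPKM (-0.97, SE 0.62), overlapping in FPKM. Ephrin type-A receptor 4 had 30.89 FPKM in B. vittatus and 33.19 FPKM in P. apodus but 4.51 to 8.59 FPKM in the other 3 lizards (-1.51, SE 0.93). Metabotropic glutamate receptors 1 and 5 differed by -0.81 (SE 0.66) and -0.00 (SE 0.57), and without centring by 0.09 and 0.91. Striatin changed sign in the same way (-0.41, and 0.50 without centring). Nuclear receptor coactivator 2 (0.37, SE 0.61), astrotactin-1 and spatacsin (0.28, SE 0.64) overlapped on centred levels but had all iguanians above in FPKM. Nuclear receptor coactivator 2 had 32.38, 37.82 and 37.59 FPKM against 8.1 and 24.46 FPKM. Spatacsin had 5.92, 7.61 and 23.11 FPKM against 2.98 and 5.2 FPKM. The difference of nuclear receptor coactivator 2 was -0.17 without L. fernandi, and that of spatacsin was -0.12 without T. jacksonii.

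The tissue label was checked against markers among the 630 names. Protocadherin Fat 2, a granule cell cadherin, had 82.28, 89.68 and 167.98 FPKM against 59.86 and 81.07 FPKM and reelin, secreted by granule cells, 111.01, 54.01 and 147.45 FPKM against 66.4 and 30.07 FPKM, so that all 5 lizards expressed both well above their median gene. On centred levels, where the median of all genes was 3.39, the 4 granule cell markers had list medians of 4.84 to 5.69. The 6 Purkinje cell markers had list medians of 4.34, 3.12 and 3.42 against 4.18 and 3.36. Only in B. vittatus and L. fernandi was this clearly above all genes. Voltage-dependent T-type calcium channel subunit alpha-1G, 1 of the 6, stood at 0.5 to 3.55 FPKM, below the median gene of every lizard. Calbindin, ZIC factors and Purkinje cell protein 2 were not analysed here. Summed over 4 granule cell markers, levels were 213 to 380 FPKM in iguanians and 139 and 145 FPKM in the others, but their share of the sum of the 630 genes overlapped, at 2.23%, 1.84% and 2.84% against 2.31% and 1.66%. The 6 Purkinje cell markers summed to 119 to 174 FPKM in iguanians, 118 FPKM in L. fernandi and 63.1 FPKM in P. apodus (1.08% to 1.30% of the sum of the 630 genes against 1.87% and 0.758%), with 1 of 6 higher after centring (median -0.77) and 4 of 6 without it. The 5 oligodendrocyte lineage markers had 2 higher (median -0.27). These were tenascin-R (1.07) and myelin transcription factor 1, with 21.58, 38.76 and 14.39 FPKM against 5.0 and 1.83 FPKM (1.63, SE 0.75) and overlapping centred levels. Lower were reticulon-4 (-2.04, SE 0.78, separated on centred levels), neurofascin (-0.88) and ATP-binding cassette sub-family A member 2 (-0.27).

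The 5 markers of vessels and meninges summed to 47.6, 50.5 and 78.9 FPKM in iguanians and to 14.2 and 11.6 FPKM in the others. That is 0.433% to 0.589% of the sum of the 630 genes against 0.227% and 0.139%. Filamin-A and agrin were separated upwards (2 of 5, beside 6.35% of all genes). After centring 3 of 5 were higher, beside 39.5% of all genes, and laminin subunit alpha-5 (-0.24) and integrin alpha-V (-0.05) were lower. The 4 astroglial markers summed to 81.8 to 135 FPKM against 47.1 and 22.9 FPKM. As a share of the 630 genes they overlapped, with 1.23%, 0.705% and 0.735% in iguanians, 0.749% in L. fernandi and 0.275% in P. apodus. Of these markers 3 of 4 were higher after centring, among them fibroblast growth factor receptor 3 with 31.17, 6.78 and 22.69 FPKM against 4.8 and 0.51 FPKM (1.71, SE 0.90), while tenascin had 2.25, 12.9 and 2.77 FPKM against 8.14 and 5.47 FPKM (-1.38, SE 0.80). None of these markers stood at 0 in any lizard, but neither did any other of the 630 genes, so this does not check the tissue. Whether the share of vessel or glial cells in the dissected tissue takes part in the differences above was not tested.

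The 5 snakes took no part in the test and show where species outside both groups stood. For the 10 leading genes of higher level, 21 of 50 snake values, centred to the same median as the lizards, lay on the iguanian side of the midpoint between the 2 groups, and for the 10 of lower level 20 of 50. Huntingtin ranged from 1.89 to 17.67 FPKM in snakes (median 7.31), and all 5 lay on the side of L. fernandi and P. apodus. The same held for astrotactin-2 and helicase-like transcription factor, whereas all 5 lay on the iguanian side in activated CDC42 kinase 1 and eukaryotic translation initiation factor 5A-2. Ankyrin-2 divided the snakes, with 12.1 FPKM in Chrysopelea ornata and 16.83 FPKM in Pantherophis guttatus, as in iguanians, and 83.31 to 168.17 FPKM in the other 3, as in the other lizards. In histone deacetylase 4 and sodium channel subunit beta-1, 4 of 5 snakes lay on the iguanian side.

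Whole profiles gave pairs within groups a slightly higher mean r than pairs between them. On log2(FPKM + 1), Pearson's r across the 630 genes was 0.599 between B. vittatus and P. vitticeps, 0.552 between P. vitticeps and T. jacksonii and 0.5002 between B. vittatus and T. jacksonii, and 0.508 between L. fernandi and P. apodus. Between the groups it ran from 0.437 (T. jacksonii and P. apodus) to 0.591 (P. vitticeps and L. fernandi). Iguanians paired with L. fernandi had 0.508 to 0.591, within the range of the iguanian pairs. Paired with P. apodus they had 0.437 to 0.483, below that range. Pairs within groups thus overlapped with pairs between them. The mean r within minus between groups was 0.0410, the highest of the 10 possible divisions into 3 and 2 species (one-sided exact permutation p = 0.1, the smallest possible). It was 0.0597 in FPKM with the same exact p of 0.1, and 0.0363 on ranks with an exact p of 0.2. In FPKM, iguanians paired with L. fernandi (0.487 to 0.515) and with P. apodus (0.451 to 0.536) both lay below the iguanian pairs (0.541 to 0.592). These r share their libraries and genes, which are not independent.

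**Figure D5:**
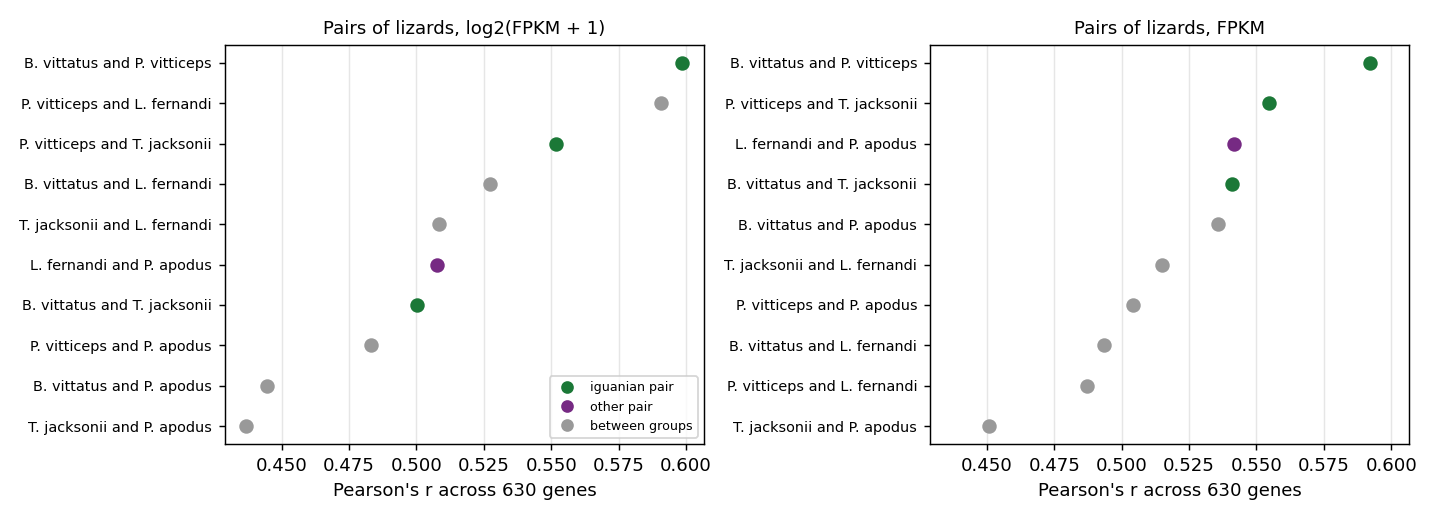
Pearson's r across 630 genes (x axis) for the 10 pairs of lizards (rows), on log2(FPKM + 1) at left and FPKM at right, with green points for iguanian pairs, purple for L. fernandi and P. apodus and grey for pairs between groups. On log2(FPKM + 1) the iguanian pairs run from 0.5002 to 0.599 and the pairs between groups from 0.437 to 0.591.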

How the data were processed

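Cerebellar total RNA, depleted of ribosomal RNA, was sequenced by the authors in 10 squamate species. Per the study's methods, reads were trimmed, freed of ribosomal sequence, assembled de novo for each species and joined into orthologs from predicted proteins. Trimmomatic and RSEM are the tools listed in the submitters' processing notes. The deposited values are FPKM, which the authors normalized for transcript length and mapped fragments. Differences between assemblies enter these values, and the sources used here do not say whether species were scaled further.

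Species were grouped by lineage from their labelled names. Values of the 5 lizards on the log2(FPKM + 1) scale were tested in R 4.3.3 with limma 3.58.1, each species centred to the same median, with no filter and Benjamini-Hochberg adjustment over 630 genes at a threshold of 0.05. Pairs of species were compared by Pearson's r with exact permutation of the species. Tables and plots were made with pandas 2.3.3, matplotlib 3.10.9, numpy 2.4.6 and scipy 1.17.1 under Python 3.11.15. The test was tried on simulated data with 200 of 630 genes shifted, in 5 draws, where it called at most 8 unshifted genes, and 1 where none was shifted.

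This comparison of lineages and the 28 gene lists (5 of cell type markers, and 1 of the others not reported here) were chosen with earlier results of these data known. Genes named are the 10 of lowest p in each direction, the 2 of lowest p in each list and the 12 locomotory genes (69 genes). Others named beside them were chosen after their values were seen. Alternatives were no centring, quantile normalization, a pseudocount of 0.1, a mean FPKM of at least 5, no value of 0.5 FPKM or less, a fit over all 10 species, limma with a trend, leaving out 22 doubtful names and leaving out each species. No genome was used, so no coordinates are given.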

Additional observations from a re-analysis of the deposited data

Results flagged for a closer look

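In the groups of 5 snakes, single values stood apart for 2 genes named here. Sodium-dependent neutral amino acid transporter SLC6A17 was lowest in Chrysopelea ornata, at 27.47 FPKM, with a gap to the next snake larger than Dixon's limit for 5 values. Filamin-A was highest in Dasypeltis gansi, at 131.02 FPKM, by the same measure. Chance sets apart about 1 in 20 such groups, and the lizard groups, of 3 and 2 species, are too small for this check.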

How the results depend on the processing

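Limma called 0 genes in the 13 alternative fits, with a smallest adjusted p of 0.0571 without centring. Counts depended most on scale. Without centring, the unadjusted counts were 76 higher and 1 lower, and 201 and 7 genes were separated upwards and downwards. Quantile normalization gave 27 higher at an unadjusted p under 0.05. A mean FPKM of at least 5 left 526 genes, of which 63 were separated downwards and 40 upwards. Over all 630 genes these counts were 106 and 40. With 1 species left out, the unadjusted count of higher genes ran from 7 (without P. apodus) to 30 (without L. fernandi), upward separations from 69 (without B. vittatus) to 140 (without L. fernandi) and downward ones from 155 (without P. vitticeps) to 212 (without P. apodus), where separation is also easier with 4 species. The lone other lizard is then assumed to vary like the iguanians. Of 69 named genes, 62 kept their direction in every alternative in which they were fitted. Reversed values without centring were 0.049 for probable ATP-dependent RNA helicase DDX23, 0.095 for metabotropic glutamate receptor 1, 0.50 for striatin and 0.91 for metabotropic glutamate receptor 5. The last was also 0.10 after quantile normalization, 0.06 without P. vitticeps or T. jacksonii and 0.12 without P. apodus. Inositol 1,4,5-trisphosphate receptor type 1 ran from -0.55 without P. apodus to 3.99 without L. fernandi, nuclear receptor coactivator 2 was -0.17 without L. fernandi and spatacsin ran from -0.12 without T. jacksonii to 0.52 without B. vittatus. Of 364 list medians under the alternatives, 62 moved by more than the SD between species. The cause of these reversals was not tested. Depth is unknown, so precision for low genes cannot be stated.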
